A study of Mus musculus with 12 samples.

Results

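The regions described here are 2031 alternative 5' splice sites of the mouse transcriptome, the positions at which one exon can end at more than one base before the same downstream exon. They are the sites, other than the first of each event, that had an inclusion value in all 12 libraries and a mean over the 12 between 2% and 98%. The table held 19376 such sites without the 16328 first sites, and 9239 of them had a value in every library. Of these, 4599 had a mean under 2% and 2609 a mean over 98%. The 2031 sites belong to 1758 events in 1518 genes, and they make up 2031 of the 28980 splicing events of all kinds that entered the same fit. The values that chose them were means over all libraries, so a site at any level in between could enter whatever its difference between groups. The sites nearest the limits had means of 2.00083% inside and 1.99917% outside at the low end, and 97.995% inside and 98.0092% outside at the high end.

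The libraries are poly(A) RNA from N2a cells, a mouse neuroblastoma line, carrying a Flp-In site and the rtTA transactivator. A FLAG-tagged Sap30bp cDNA under doxycycline control was present in each of 2 lines, which differ in whether the cDNA lacks exon 3 (here E3-minus) or contains it (E3-plus). Each line gave 3 groups of 2 biological replicates: a non-targeting siRNA pool (control), an siRNA against Sap30bp (knockdown), and the same siRNA with doxycycline (rescue by the line's own isoform), with doxycycline added at the medium change 24 h after transfection and all cells harvested at 72 h. Wells of a condition were combined before RNA extraction, so a library stands for pooled wells. No group had the control siRNA with doxycycline, and isoform and line are a single factor, so neither an effect of doxycycline nor one of the line can be told apart from that of the isoform. The labels do not say whether a line is 1 clone.

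In the authors' deposited table of expression, Sap30bp stood at 40.03, 21.71 and 196.5 RPKM in control, knockdown and rescue of the E3-minus line and at 33.59, 18.6 and 141.3 RPKM in the E3-plus line. In the authors' deposited table the knockdown difference had log2 fold changes of -0.63 (FDR 0.0674) and -0.60 (FDR 0.0684), above an FDR of 0.05 in both lines. The RPKM value sums the endogenous gene and the cDNA, so it does not tell how much of either is present after rescue. The authors' deposited table put 9 of 15 neuroblastoma and sympathetic neuron markers at 1 RPKM or more in every group, among them Tubb3, Stmn2, Chga, Phox2a and Hand2, and 0 of 7 fibroblast and 0 of 4 immune markers, while Nefl and Nefm were near 0. Some of these markers moved with knockdown in the authors' deposited table: Phox2a rose from 48.97 to 107.74 RPKM (FDR 0.0175) in the E3-minus line and from 35.99 to 116.63 RPKM (FDR 9.93e-05) in the E3-plus line, and Hand2 (FDR 0.00447) and Dbh (FDR 6.08e-08) rose in the E3-plus line. The part of this in the differences in site use was not tested. The read depth behind the inclusion values was not examined, and p-values measure the spread between these libraries. Median gaps between replicates of a group were 2.26 to 2.69 percentage points over the 2031 sites, against 2.05 to 2.69 over all 28980 events.

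The 5' splice site marks the start of an intron. It is first bound by the U1 snRNP, whose RNA pairs with the last bases of the exon and the first of the intron, and it is then handed over to the U6 RNA of the tri-snRNP before the intron is cut. Where an exon has several such sites, the one nearer the exon's start gives a shorter exon and a longer intron, and the one further on gives a longer exon and a shorter intron. SR proteins, hnRNP proteins and U1-associated proteins such as LUC7L3 and TIA1 are known to tip this choice. SAP30BP is a nuclear protein that binds RBM17, a splicing factor with a known role at the 3' end of short introns. The comparisons below ask how the use of 5' splice sites differed when Sap30bp was knocked down and when an isoform was put back.

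Sequences are shown for the sites called over both lines whose stretch lies wholly in annotated coding sequence, and for Fam160a2, Dcaf15 and Srsf7. Fam160a2 was called, and 42 of the 60 nt between its first and last site are annotated as coding. Dcaf15 and Srsf7 were not called and are described further on. Each line gives the last 12 exon bases and the 18 that follow the site, 5' to 3' on the gene's strand. Capitals mark the 9 bases around the cut that pair with U1, 3 of the exon and 6 after it. The bases come from the GENCODE M21 transcripts of the GRCm38 assembly, in which 899 of the 1758 events could be matched by gene and by exact intron lengths, while positions are those of the files, on mm9. A last site is shown only where another transcript keeps the intron in its sequence.
Fbxo44 site 1: cccaatgacCAGGTCAAGaaatacttcgtg
Sdhaf2 site 1: gcttctacaGAGGTGACAgcccaacagact
Sdhaf2 site 2: cattctcctTAGGTAGTGgggcagaaggct
Cnbp site 1: gccgcggcaGAGGTGGTTttacctcggata
Cnbp site 2: gcggcagagGTGGTTTTAcctcggatagag
Cnbp site 3: cctcggataGAGGTATTTttgtcgaataaa
Baz2b site 1: cattgagagAAGGTATCTgaagagcccctt
Fam160a2 site 1: catgggcacGAGGTGGGCctagcagagagg
Zmynd11 site 1: cccaaaaagGAAGTAAGTtgcccgcctcac
Zmynd11 site 2: tctccgtccCCAGTAAGCagccggggagca
Dcaf15 site 1: cactgcacaAAGGTAGGAagtgccctagct
Srsf7 site 1: cagaagatcTAGGTCTGGttctataatagg
Srsf7 site 2: aataggatcGAGGTATTTccagtatgtagc
Srsf7 site 3: gaggtatttCCAGTATGTagcacatttttc
All 14 have GT directly after the cut, and none has all 9 bases of CAGGTAAGT, the consensus that pairs with U1. Cnbp site 3 and Srsf7 site 2 carry the same 9 bases, GAGGTATTT, which match the consensus at 6. Cnbp site 2, the least used of its 3, matches at 3 bases.

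The same count over the matched events gives the background for these sequences. Of 820 first sites with all 9 bases known, 792 began the intron with GT and 27 with GC, and their median match to CAGGTAAGT on the gene's strand was 6 of 9 bases, with 0 at 9. Among 240 events with both the first and the last site known, the last site matched better in 93, the first in 80, and 67 were equal. The stretch between the first and the last site lay wholly in annotated coding sequence in 348 of the 899 matched events (38.7%), in part in 140, and in none of it in 411 (45.7%).

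Most sites sat close to the first site of their event. The median distance was 45 nt, with the middle range from 13 to 118 nt and the extremes at 1 and 492 nt. The distance was divisible by 3 at 36.0% of the sites. The intron left when a site is used measured 1121 nt at the median (quartiles 410 and 3055 nt). Of the events, 1222 had 2 sites and 536 more than 2, up to 8, and 241 events contributed more than 1 site to the 2031. Sites of one event share their reads, since the use of all sites summed to 100% within 0.05 points in 1750 of the 1758 events, and a gain at one is a loss at another. Use, the share of an event's transcripts that end the exon at the site, had a median of 26.4% over the sites and quartiles at 4.76% and 90.9%.

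Knockdown of Sap30bp changed the use of 10 of the 2031 sites, 8 of them towards less use of the site that lengthens the exon. The sites that fell lie in Fbxo44, Baz2b, Sdhaf2, Cnbp, Zfp938, Vps24, Cstf1 and Zmynd11, and those that rose lie in Fam160a2 and Hdac6. A change was called in limma at an adjusted p under 0.05 (Benjamini-Hochberg, over all 28980 events) and a size of 15 percentage points or more, taken as the mean of the knockdown minus control differences of both lines. The 10 are 0.492% of the sites, against 1.48% of all events (1% higher and 0.483% lower). The share of lower calls among the sites, 8 of 2031, was near that of all events pooled, which mix kinds with different directions. By kind, 2.02% of 6738 cassette exons were called (28 higher and 108 lower) and 1.59% of 17096 introns (254 higher and 18 lower). For 3115 alternative 3' splice sites it was 0.385% (6 higher and 6 lower). These shares were not tested against each other.

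The bulk of the sites stayed close to their control use. The median difference was 0.05 points, the median absolute difference was 1.63 points, and 1733 sites (85.3%) were within 5 points of control. These values depend on use, since sites near either end of the scale have less room to move. Of 776 sites with a mean use under 10% and 530 at 90% or over, 0 were called. Their median absolute differences were 1.19 and 1.22 points. Among 411 sites at 10 to 49% 3 were called, and among 314 at 50 to 89% 7, with medians of 3.34 and 3.19 points. At an unadjusted p under 0.05 there were 121 sites higher and 131 lower, 12.4% of the sites against 19.1% of all events (12% higher and 7.16% lower). The knockdown libraries lay wholly on the same side of the control libraries in both lines at 260 sites (12.8%), 122 higher and 138 lower, against 18% of all events. Across the 2031 sites, which are not independent replicates, Pearson's r between the knockdown differences of the lines was 0.441, and over all events it was 0.655.

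**Figure D1:**
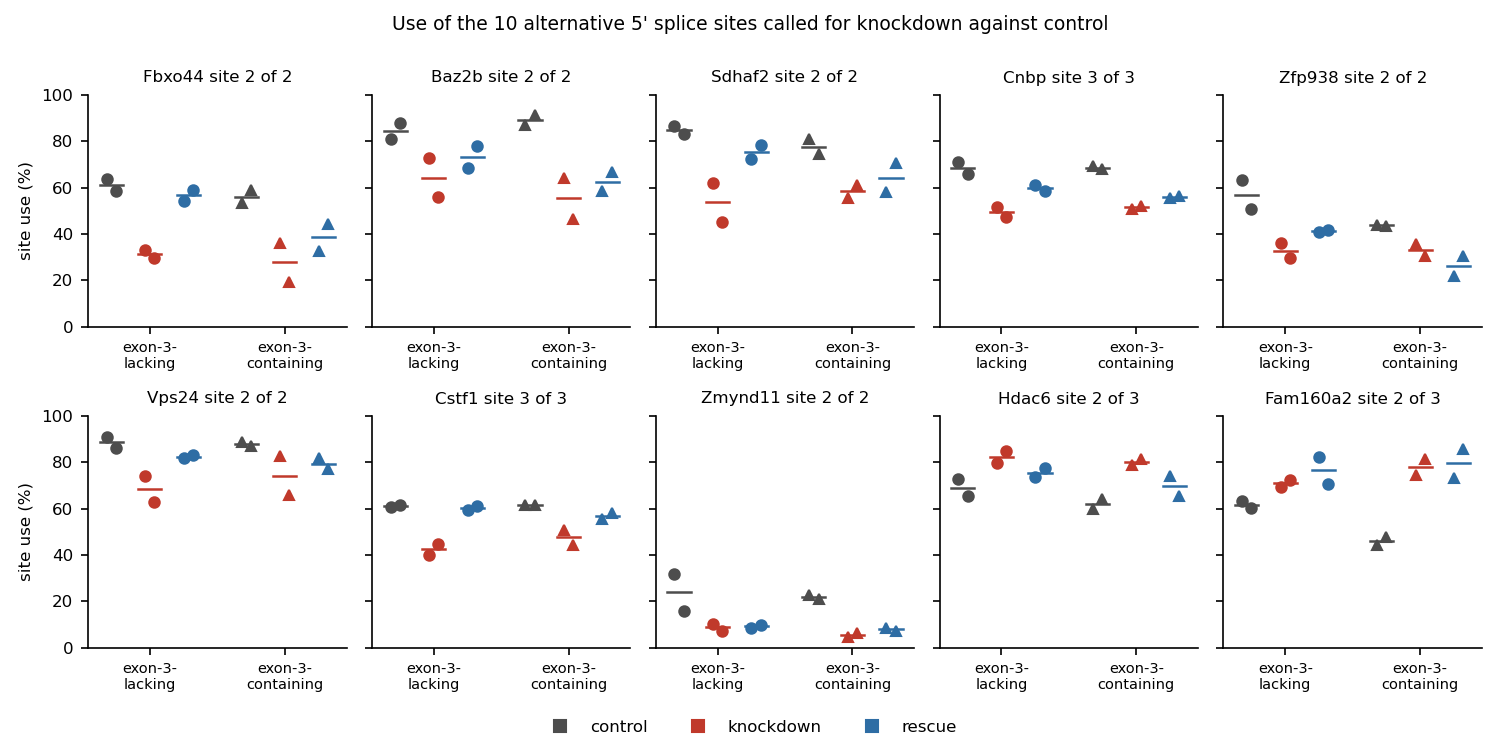
Use in percent (vertical axis, 0 to 100) of the 10 called sites in each of the 12 libraries, grouped by line (circles, exon-3-lacking, E3-minus; triangles, exon-3-containing, E3-plus) and coloured by condition, with bars at the mean of 2 libraries. Knockdown points lie below the control points in 8 panels and above them in the panels of Hdac6 and Fam160a2, in both lines.

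Fbxo44 encodes an F-box protein, the part of an SCF ubiquitin ligase that picks the substrate. Its exon on chromosome 4 (minus strand) can end at 147530718 or, 29 nt further on, at 147530689, both within annotated coding sequence. The distance is not divisible by 3, and the choice turns an intron of 118 nt into one of 89 nt. Use of the second site was 63.8% and 58.3% in the E3-minus control libraries, 32.9% and 29.4% after knockdown and 54.2% and 59.1% after rescue, and 53.3% and 58.8%, 36.1% and 19.2% and 32.6% and 44.4% in the same order in the E3-plus line. Knockdown libraries were below every control library in both lines, and after rescue the E3-minus libraries overlapped their controls while the E3-plus ones lay below theirs. Use fell by 29.1 points (SE 4.31, limma adjusted p = 0.0067), the largest difference among the 2031 sites. The exon that ends at site 1, the first of the sequences above, is thus the form that gained.

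Sdhaf2 encodes the assembly factor that attaches FAD to the flavoprotein of succinate dehydrogenase. The exon on chromosome 19 (minus strand) ends at 10591810 or 151 nt on at 10591659, and the intron is 230 or 79 nt. The stretch lies wholly in annotated coding sequence, and its length is not divisible by 3. Use of the second site was 86.4% and 83% in the E3-minus control libraries, 62% and 45.3% after knockdown and 72.6% and 78.3% after rescue, and 81% and 74.6%, 55.6% and 61.3% and 58% and 70.6% in the same order in the E3-plus line. All 4 knockdown libraries were below all 4 control libraries, and the E3-minus rescue libraries lay between. Use fell by 25.2 points (SE 4.05, limma adjusted p = 0.00959).

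Cnbp encodes a CCHC zinc finger protein that binds single-stranded nucleic acids. Its sites at 87795671, 87795668 and 87795650 on chromosome 6 (minus strand) end an exon within 21 nt of annotated coding sequence and leave introns of 119 to 98 nt. Use of the third was 70.9% and 65.9% in the E3-minus control libraries, 51.6% and 47.4% after knockdown and 61.2% and 58.6% after rescue, and 69.3% and 68%, 51% and 51.9% and 55.6% and 56.5% in the same order in the E3-plus line. Controls of both lines, rescue libraries and knockdown libraries formed separate levels in that order, with no overlap within a line. The third site fell by 18.1 points (SE 2.57, limma adjusted p = 0.00569) while the mean use of site 1 went from 29.1% to 46.7% in the E3-minus line and from 28.2% to 44.4% in the other. Site 2 had group means from 2.57% to 4.23%.

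Baz2b encodes a bromodomain protein that reads acetylated histones. Its exon on chromosome 2 (minus strand) ends at 59745601 or 105 nt on at 59745496, in annotated coding sequence and in frame, leaving 492 or 387 nt of intron. The longer form took 81% and 87.9% in the E3-minus control libraries, 72.8% and 55.8% after knockdown and 68.6% and 77.9% after rescue, and 87.2% and 91.4%, 64.2% and 46.7% and 58.4% and 66.8% in the same order in the E3-plus line. No knockdown library reached the lowest control, and the knockdown replicates of both lines lay far apart. Use fell by 27 points (SE 4.69, limma adjusted p = 0.0125).

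Zmynd11 encodes a chromatin reader of methylated histone H3.3 that is known to act on elongation and intron retention. Its exon on chromosome 13 (minus strand) ends at 9689692 or 168 nt on at 9689524, in frame. The second site was the minor one, at 31.7% and 15.9% in the E3-minus control libraries, 10.2% and 7.19% after knockdown and 8.36% and 9.87% after rescue, and 22.8% and 21.1%, 4.47% and 6.17% and 8.51% and 7.07% in the same order in the E3-plus line. Knockdown and rescue libraries were low in both lines, and the E3-minus controls lay about as far from each other as the size of the knockdown difference. Use fell by 15.9 points (SE 3.12, limma adjusted p = 0.0206).

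Cstf1 encodes the smallest of the 3 subunits of the cleavage stimulation factor, which acts in making the 3' ends of mRNAs. Its sites on chromosome 2 (plus strand) at 172196356, 172196360 and 172196527 lie outside annotated coding sequence. The third, 171 nt after the first, was used at 60.7% and 61.6% in the E3-minus control libraries, 39.9% and 44.9% after knockdown and 59.2% and 61.2% after rescue, and 61.5% and 61.7%, 51% and 44.1% and 55.5% and 58.3% in the same order in the E3-plus line. Control libraries of both lines lay between 60.7% and 61.7%, no knockdown library was above 51%, and the E3-minus rescue libraries overlapped their controls. Use fell by 16.4 points (SE 2.83, limma adjusted p = 0.0122), and the first site took up the difference, since the middle one had group means from 0.12% to 0.73%.

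Vps24, also named Chmp3, encodes a subunit of the membrane-cutting ESCRT-III complex. Its exon on chromosome 6 (plus strand) ends at 71493961 or 66 nt on at 71494027, before an intron of 16863 nt, the longest left by any of the 10 called sites. Use of the second site was 91% and 86.4% in the E3-minus control libraries, 73.9% and 62.7% after knockdown and 81.9% and 83.1% after rescue, and 88.6% and 86.9%, 82.7% and 65.9% and 81.8% and 77.1% in the same order in the E3-plus line. The knockdown libraries were lowest in the E3-minus line, while in the other line one knockdown library overlapped the rescue libraries. Use fell by 16.9 points (SE 3.58, limma adjusted p = 0.028).

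Zfp938 encodes a zinc finger protein. Its exon on chromosome 10 (minus strand) ends at 81690276 or 86 nt on at 81690190, and 1 nt of that stretch is annotated as coding. The second site was at 63.3% and 50.6% in the E3-minus control libraries, 36% and 29.4% after knockdown and 40.6% and 41.9% after rescue, and 44% and 43.3%, 35.5% and 30.4% and 21.6% and 30.6% in the same order in the E3-plus line. Knockdown was below control in both lines, and the E3-plus rescue libraries overlapped the knockdown ones or lay lower. The site fell by 17.5 points (SE 3.76, limma adjusted p = 0.0292).

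The sites that rose were both the middle one of 3. Hdac6 encodes a cytoplasmic deacetylase of tubulin, and its sites at 7524833, 7524776 and 7524701 on chromosome X (minus strand) lie outside annotated coding sequence. The middle Hdac6 site was used at 72.7% and 65.5% in the E3-minus control libraries, 79.6% and 84.8% after knockdown and 73.5% and 77.6% after rescue, and 60.01% and 64.2%, 78.9% and 81.6% and 74.1% and 65.3% in the same order in the E3-plus line. Knockdown was above control in both lines, with rescue between. The Hdac6 middle site rose by 15.6 points (SE 2.76, limma adjusted p = 0.0133), and the last of the 3, at 36.3% and 32.1% in the E3-plus controls and 15.6% and 8.73% after knockdown there, differed by -13.3 points over both lines (SE 3.08, limma adjusted p = 0.0392), below the 15 points needed.

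Fam160a2 encodes a partner of the FTS and Hook proteins, which link cargo to dynein. The exon on chromosome 7 (minus strand) ends at 112533502, at 112533460 or at a last site with group means from 0% to 1.18%. The middle one, 42 nt from the first and in frame, was at 63.1% and 60.4% in the E3-minus control libraries, 69.5% and 72.4% after knockdown and 82.4% and 70.6% after rescue, and 44.4% and 47.5%, 74.5% and 81.4% and 73.3% and 85.9% in the same order in the E3-plus line. Controls were lower in the E3-plus line than in the other, and rescue libraries overlapped the knockdown ones in both lines. Use rose by 20.6 points (SE 3.49, limma adjusted p = 0.0118), the mean of 9.21 points in the E3-minus line and 31.9 points in the E3-plus line, where it was also called (limma adjusted p = 0.0311).

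With each of the 12 libraries left out in turn, the calls at Fbxo44 and Cnbp were kept every time. Without the first E3-plus control the count of called sites was 2, and Baz2b, Sdhaf2, Cstf1, Vps24, Zfp938, Zmynd11, Hdac6 and Fam160a2 then had differences of -28.1, -23.6, -16.4, -16.5, -17.3, -15.4, 14.6 and 19.8 points. The count was also lower without the second E3-minus knockdown library, the first E3-minus control or the second E3-plus knockdown library. Without the first E3-minus knockdown library it was higher. In each of these fits, and without the first E3-plus control, the count over all 28980 events moved the same way. The largest adjusted p over these 12 fits was 0.0521 for Sdhaf2, 0.0509 for Baz2b, 0.0576 for Cstf1, 0.0567 for Fam160a2, 0.0672 for Hdac6, 0.0858 for Zmynd11, 0.118 for Vps24 and 0.124 for Zfp938.

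**Figure D2:**
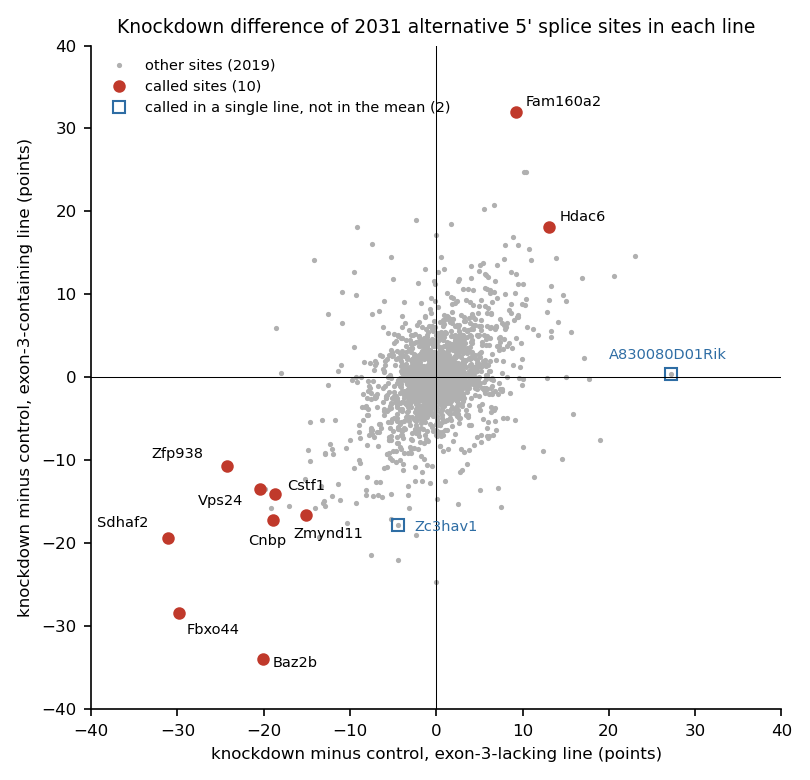
Knockdown minus control in percentage points for each of the 2031 sites in the exon-3-lacking (E3-minus) line on the horizontal axis and the exon-3-containing (E3-plus) line on the vertical axis, with called sites in red and sites called in a single line as open squares. The 8 called sites of lower use lie in the lower left, and A830080D01Rik lies on the horizontal axis with 27.2 points in one line and 0.39 in the other.

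Taken line by line, fewer sites passed. In the E3-minus line 1 site was called, with higher use, against 0.0207% of all events (0.0173% higher). It lies in A830080D01Rik, also named Bclaf3, on chromosome X (plus strand), 87 nt after the first site, and was used at 69.6% and 73% in the E3-minus control libraries, 100% and 97.1% after knockdown and 88.1% and 91.2% after rescue, and 86% and 89.3%, 82.4% and 93.7% and 95.4% and 89.1% in the same order in the E3-plus line. The E3-minus controls were the lowest of all libraries and the E3-minus knockdown libraries the highest, and the E3-plus control and knockdown libraries overlapped. The rise was 27.2 points (SE 3.58, limma adjusted p = 0.0486), and the difference between the lines, -26.9 points, did not pass (limma adjusted p = 1).

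In the E3-plus line 2 sites were called, against 0.338% of all events (0.197% higher and 0.141% lower). The Fam160a2 site above rose, and the one that fell lies in Zc3hav1, which encodes the antiviral protein ZAP, on chromosome 6 (minus strand), 348 nt after the first site, and was used at 83.3% and 79.8% in the E3-minus control libraries, 78% and 76.3% after knockdown and 79.6% and 84% after rescue, and 86.7% and 86.7%, 65.9% and 71.9% and 71.7% and 77.3% in the same order in the E3-plus line. The E3-plus controls were the highest of all libraries and that line's knockdown libraries overlapped its rescue libraries at the low end, while control and rescue overlapped in the other line. The fall was 17.8 points (SE 3.13, limma adjusted p = 0.042). A830080D01Rik and Zc3hav1 each lost the call in 9 of the 12 fits with a library left out (highest adjusted p 0.334 and 0.288), and Fam160a2 lost its single-line call in 5.

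The knockdown effect was also compared between the lines. At 0 of the 2031 sites, and 0% of all events, did the difference pass in limma. An unadjusted p under 0.05 was found at 77 of the 2031 sites, against 927 of all 28980 events. Sites that passed in one line and not in the other are therefore not shown to differ between the lines.

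Further sites had large differences that did not pass. Tmf1, which encodes a golgin of the Golgi, stood at 38.4% and 40.3% and 60.5% and 64.3% in control and knockdown of the E3-minus line and at 35.2% and 37% and 54.9% and 46.5% in the E3-plus line, with 18.8 points over both (limma adjusted p = 0.0552). The libraries did not overlap in either line. 8430427H17Rik, Bend4, Ttc14 and Fbxl19 had 17.6, -17.4, -16.6 and -16.3 points, with limma adjusted p of 0.0949, 0.0536, 0.0634 and 0.085. Prc1, a bundler of spindle midzone microtubules, had -14.9 points over both lines (limma adjusted p = 0.0635). Rgp1, Sfswap, Ankrd16 and Gcfc1 had -14.5, -14, -13.2 and -13.2 points, with limma adjusted p from 0.0581 to 0.137. Without regard to size, 39 sites had an adjusted p under 0.05 (16 higher and 23 lower), 1.92% of the 2031, against 3.86% of all events (2.44% higher and 1.43% lower). By kind this share was 5.58% for cassette exons, 3.87% for introns and 1.35% for alternative 3' splice sites.

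Called sites were counted by the length of intron they leave, in classes whose limit at 100 nt was set after the values had been seen. The counts are a description and were not tested between classes. Among 95 sites that leave an intron under 100 nt, 3 were called (3.16%), in Fbxo44, Sdhaf2 and Cnbp, all with lower use. Their median difference was -0.95 points, 61 (64.2%) had a negative difference, and 16 were lower and 6 higher at an unadjusted p under 0.05. Among 165 sites that leave at least 100 but under 200 nt, 0 were called and the median was -0.15 points. Among 1771 sites that leave 200 nt or more, 7 were called (0.395%) and the median was 0.08 points, with 106 higher and 104 lower at an unadjusted p under 0.05. With sites that leave under 200 nt as a single class, 3 of 260 were called (1.15%). Median use was 69.0% at the 95 sites, 15.5% at the 165 and 25.9% at the 1771, so these classes differ in use as well.

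The next split was prompted by those 3 called sites. At 51 sites the intron is under 100 nt with the site and 100 nt or more with the first one, and the 3 called sites are among these, where 35 of 51 had a negative difference and the median was -1.44 points. At 44 sites the intron is under 100 nt with either site, 0 were called and the median was -0.32 points. Median use was 91.4% at these 44 sites and 27.5% at the 51, and 0 of the 530 sites with a mean use of 90% or over were called. These classes thus also differ in their room to move, and the part of this was not tested. Counting only events with 2 sites, 2 of 78 sites that leave under 100 nt were called. Ntan1, named after its values were seen, had the next largest difference of the class, -12.2 points (limma adjusted p = 0.00549) at a site that leaves 74 nt, which is under the 15 points a call needs. Neurl4 went furthest the other way in this class, at 10.9 points (limma adjusted p = 0.0857), also named after its values were seen.

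**Figure D3:**
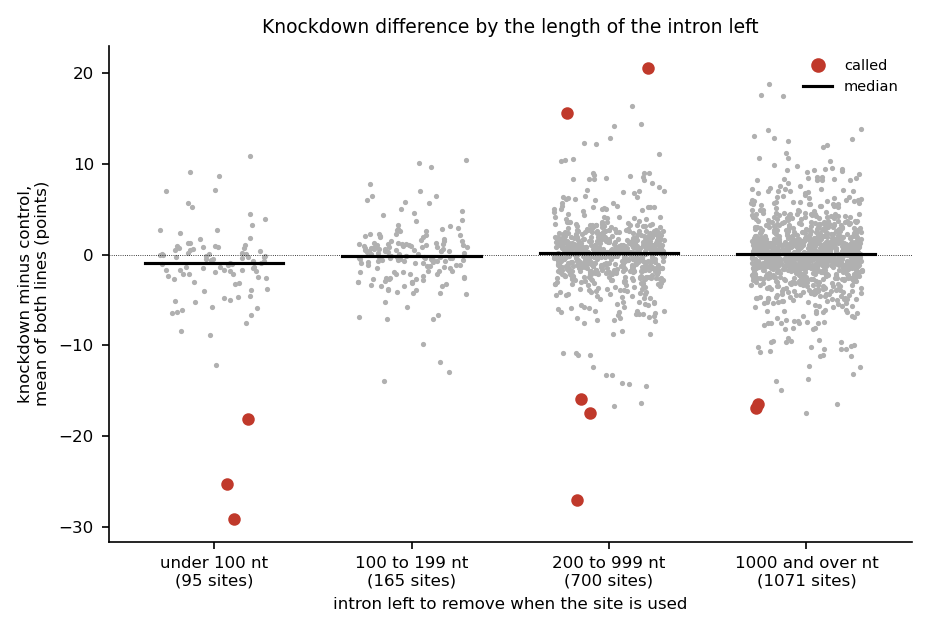
Knockdown minus control, mean of both lines, in percentage points (vertical axis) for the 2031 sites by the length of the intron left when the site is used (horizontal axis, 4 classes), with called sites in red and a bar at each median. The 3 called sites under 100 nt are all below -18 points, the 95 sites of that class have a median of -0.95 and those of 1000 nt and over a median of 0.05.

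Other features of position gave these counts. By distance from the first site, 7 of 685 sites from 50 to under 200 nt were called (6 lower), 3 of 676 at 10 to 49 nt, 0 of 397 under 10 nt and 0 of 273 at 200 nt or more. Median use in these classes was 25.2%, 44.0%, 44.5% and 6.78% in the same order. Sites exactly 4 nt on numbered 127, 0 of them called, with a median of -0.36 points. Of sites whose distance is divisible by 3, 7 of 732 (0.956%) were called, against 3 of 1299 (0.231%) of the others.

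The retention of the introns that follow these exons was read from separate entries of the same table. Of the 1758 events, 1409 had an intron entry that starts at one of their sites and ends at their acceptor, and 397 of these introns met the filter and were tested. Retention changed at 7 of them (1.76%, against 1.59% of all introns), 6 higher after knockdown and 1, in Gcfc1, lower. None of the introns behind the 10 called sites was tested: Cnbp, Vps24 and Zfp938 had no matching intron entry, and for the others values were missing in some libraries or the mean lay outside the filter.

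Dcaf15 had large differences in both readouts. It encodes the substrate receptor of a CRL4 ubiquitin ligase, known as the target of sulfonamides that degrade the splicing factor RBM39. The exon on chromosome 8 (minus strand) ends at 86621636 or 114 nt on at 86621522, in annotated coding sequence and in frame, leaving 228 or 114 nt. Use of the second site was 20% and 20.8% in the E3-minus control libraries, 6.73% and 8% after knockdown and 14.3% and 13.7% after rescue, and 29.2% and 23.1%, 13.4% and 9.09% and 10.1% and 8.7% in the same order in the E3-plus line. Retention of the 114 nt intron was 62.2% and 67.2% in the E3-minus control libraries, 91.2% and 85.4% after knockdown and 61.5% and 68.4% after rescue, and 43.6% and 54.1%, 76.1% and 85.2% and 81% and 78.2% in the same order in the E3-plus line. Site use was lower and retention higher in every knockdown library than in the controls of its line, and rescue retention overlapped control in the E3-minus line and knockdown in the other. Retention rose by 27.7 points (SE 3.21, limma adjusted p = 0.0033), and site use differed by -14 points (SE 2.36, limma adjusted p = 0.0113), short of 15 points. These readouts come from the same libraries and are not independent.

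At Sdhaf2 retention of the 79 nt intron, which had values in 11 libraries and no test, was 2.17% and 2.52% in the E3-minus control libraries, 9.2% and 12% after knockdown and 4.52% and 4.62% after rescue, and 5.51% and 4.11%, 7.89% and 11.1% and 4.76% in the same order in the E3-plus line. Knockdown libraries were the highest in each line. The intron of Fbxo44 behind its second site had values in 10 libraries, 16.3% and 8.03% in the E3-minus controls, 18.1% in the single knockdown library with a value and 10.4% and 13.6% after rescue. In the E3-plus line it was 14.7% and 7.76% in the controls, 25.5% in the single knockdown library and 22.6% and 25.6% after rescue. The rescue libraries were near the knockdown library in the E3-plus line and within the control range in the other, and no test was run.

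**Figure D4:**
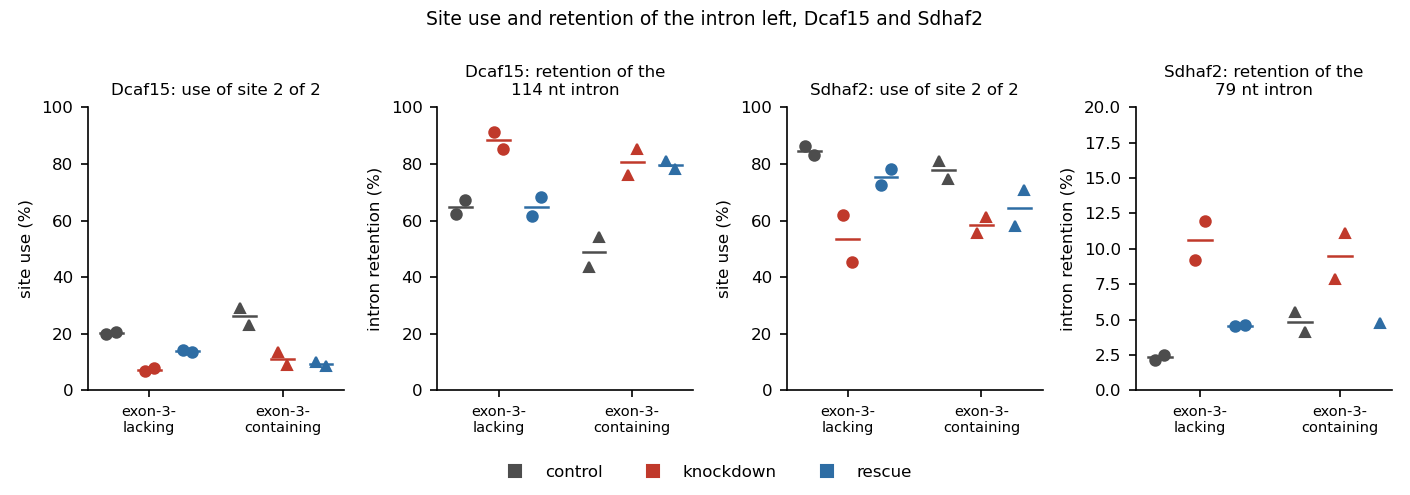
Use of the second site and retention of the intron left by it, both in percent (vertical axes, the last one to 20), for Dcaf15 and Sdhaf2 in each library by line (circles, exon-3-lacking, E3-minus; triangles, exon-3-containing, E3-plus) and condition, with bars at the mean of 2 libraries. Site use is lower and retention higher in the knockdown libraries of both genes, and Sdhaf2 retention has no value for 1 rescue library.

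At the other introns with higher retention, the differences in site use were under 3 points and did not pass. Dpp7, a lysosomal dipeptidase, has an intron of 92 nt from its first site, with retention at 20% and 27.1% in the E3-minus control libraries, 45% and 61.5% after knockdown and 24.7% and 36% after rescue, and 14.2% and 30.3%, 52.1% and 68.2% and 39.9% and 48.8% in the same order in the E3-plus line. Its retention was higher in all knockdown libraries and rose by 33.8 points (SE 5.56, limma adjusted p = 0.0109), while its second site, 4 nt on, differed by -0.365 points (adjusted p = 0.918). For Eml3, Pcnxl3, Nt5c and Pitpnm1 retention rose by 20.9, 22.2, 21.7 and 17.5 points (limma adjusted p of 0.0287, 0.0337, 0.0287 and 0.0366), and the site of each differed by 0.0175, 1.74, -1.13 and 2.70 points. In Gcfc1, also named Paxbp1, another event than the one above had a 512 nt intron whose retention fell by 26.0 points (SE 3.45, limma adjusted p = 0.0047), and its site differed by -5.89 points (SE 1.19, adjusted p = 0.0231).

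Sites were also found in genes whose products recognise or steer 5' splice sites, and none of them was called. SRSF5 and SRSF7 are SR proteins, LUC7L3 is a U1-associated protein and HNRNPH1 an hnRNP protein that binds runs of G. The Srsf5 site on chromosome 12 (plus strand), 130 nt after the first and outside annotated coding sequence, was used at 31.3% and 17.1% in the E3-minus control libraries, 12.6% and 9.51% after knockdown and 9.64% and 10.7% after rescue, and 28.8% and 24.4%, 11.2% and 11.8% and 17.2% and 13% in the same order in the E3-plus line. Controls were above every other library of their line, and the E3-minus controls differed from each other by 14.2 points. The difference was -14.1 points (SE 3.21, limma adjusted p = 0.0366).

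In Srsf7 the 3 sites shown above lie within 33 nt of coding sequence on chromosome 17 (minus strand). The middle one was used at 55.2% and 51.4% in the E3-minus control libraries, 51.7% and 41.4% after knockdown and 47.6% and 46.3% after rescue, and 54.3% and 50.9%, 38.9% and 37.9% and 43.2% and 46% in the same order in the E3-plus line. The last was used at 34.9% and 38.9% in the E3-minus control libraries, 41% and 50.1% after knockdown and 43.4% and 41.7% after rescue, and 38.4% and 42%, 53.5% and 52.3% and 45% and 47.8% in the same order in the E3-plus line. In the E3-plus line the middle site was lower and the last higher after knockdown, with no overlap, while in the E3-minus line the middle site's libraries overlapped. Neither passed, with -10.4 points (adjusted p = 0.0943) and 10.7 points (adjusted p = 0.0867) in limma.

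The Luc7l3 site on chromosome 11 (minus strand), 53 nt after the first, was at 75.4% and 80% in the E3-minus control libraries, 81% and 85.7% after knockdown and 85.5% and 84.2% after rescue, and 72.8% and 74%, 86.2% and 85.6% and 83.1% and 82.7% in the same order in the E3-plus line. All knockdown libraries exceeded all controls, and rescue stayed above control. The difference was 9.09 points (SE 1.82, limma adjusted p = 0.0223), under the size needed. Hnrnph1 on chromosome 11 (plus strand) has 3 sites that leave introns of 100, 91 and 61 nt. The middle one was used at 94.6% and 93.5% in the E3-minus control libraries, 89.4% and 85.1% after knockdown and 92.6% and 89.3% after rescue, and 95.8% and 94.4%, 88% and 85.4% and 92.4% and 91.1% in the same order in the E3-plus line. Knockdown lay below control in both lines, and the difference was -7.56 points over both (SE 1.56, limma adjusted p = 0.0245). The last Hnrnph1 site, with the shortest intron, had 5.29 points (limma adjusted p = 0.103), and the first, with the longest, had group means of 0.87% and 3.38% in control and knockdown of the E3-minus line and 0.875% and 2.9% in the other.

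**Figure D5:**
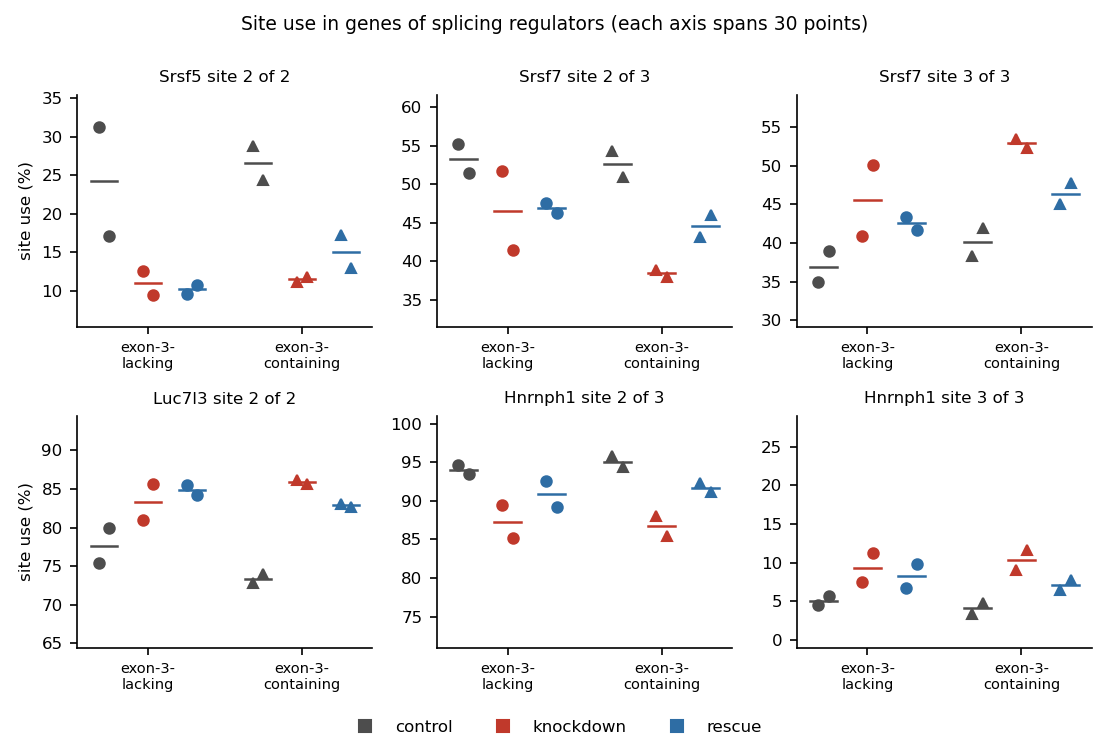
Use in percent (vertical axes, each spanning 30 points) of sites in Srsf5, Srsf7, Luc7l3 and Hnrnph1 in each library, by line (circles, exon-3-lacking, E3-minus; triangles, exon-3-containing, E3-plus) and condition, with bars at the mean of 2 libraries. The middle Hnrnph1 site lies at 93.5% to 95.8% in the controls and at 85.1% to 89.4% after knockdown, and the Luc7l3 site is higher after knockdown in both lines.

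Sites in other genes of that list were not called either. Tia1, which encodes a U1-associated protein, had -6.52 points (limma adjusted p = 0.356). Prpf40b, with a site that leaves 80 nt in place of 178 nt, went from 99.1% and 97.2% to 94.1% and 91.3% and from 98.8% and 97.8% to 94.4% and 87.7%, a difference of -6.37 points (limma adjusted p = 0.103). Its control and knockdown libraries did not overlap in either line. Snrnp25, of the minor spliceosome, had 4.16 points (limma adjusted p = 0.0901).

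The expression of the genes that recognise 5' splice sites was read from the authors' deposited table. Of 57 genes listed for U1, the hand-over to U6 and the tri-snRNP, the minor spliceosome and the regulators of site choice, 56 had a test. By the FDR under 0.05 of the authors' deposited table, knockdown changed none of these 56 (0 genes) in the E3-minus line and 1 in the E3-plus line, against 2.26% and 3.68% of all 21462 genes. The one is Mettl16, which modifies U6, with a log2 fold change of 0.69 (FDR 0.0404) in the E3-plus line and 0.44 (FDR 0.38) in the other, per the authors' deposited table. This log2 fold change averaged over both lines was above 0 for 46 of the 56 (all 13 regulators of site choice, 17 of 19 for the hand-over to U6, 14 of 19 for U1 and 2 of 5 of the minor spliceosome) against 49.8% of all genes, with medians over the 56 of 0.13 and 0.20 in the authors' deposited table against 0.00 over all genes. Besides Mettl16, the averages furthest from 0 in the authors' deposited table were those of Prpf3, Srsf3, Prpf40b and Prpf8, at 0.64, 0.59, -0.47 and 0.43, and none of these passed. Of the genes that hold the 2031 sites, 20 of 1495 (1.34%) and 41 of 1495 (2.74%) passed per line in the authors' deposited table. For the 10 called sites the host genes had an FDR from 0.273 to 1 for knockdown in the authors' deposited table.

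Rescue was compared with knockdown to ask whether either isoform moved site use back. In limma 0 of the 2031 sites passed in the E3-minus line (0.00345% of all events) and 0 in the E3-plus line (0% of all events). At an unadjusted p under 0.05 there were 96 and 119 of the 2031 sites, against 2485 and 1983 of all 28980 events. With 2 libraries a group, a return of the size of the knockdown change could be missed, as the SE of a rescue difference was 3.63 to 6.63 points at the 10 called sites. In the authors' deposited table, 51 of the 2031 sites are listed, with 7 called for rescue against knockdown in the E3-minus line (6 higher) and 4 in the E3-plus line (2 higher). For knockdown the authors' deposited table calls 13 of the sites in the E3-minus line and 20 in the E3-plus line, 28 in either and 5 in both, and 8 of the 10 limma calls are among the 28. The authors' calls over all kinds of event were not counted here. These counts therefore do not tell whether the sites were called more or less often than other events.

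The sites called for knockdown were chosen with the same knockdown libraries, so their rescue differences are given as values only. Fbxo44 rescue minus knockdown was 25.5 points with the isoform lacking exon 3 and 10.8 points with the isoform containing it (SE 6.1). At Sdhaf2 the values were 21.8 and 5.89 points (SE 5.72), at Cstf1 17.8 and 9.33 points (SE 4), and at Cnbp 10.4 and 4.63 points (SE 3.63). At these 4 genes the E3-minus rescue stood nearer its controls. Baz2b had 8.93 and 7.2 points (SE 6.63) and Vps24 14.2 and 5.16 points (SE 5.06). Zfp938 had 8.54 and -6.87 points (SE 5.32), the latter away from control. Zmynd11 had 0.42 and 2.47 points (SE 4.41), each under its SE. Fam160a2 had 5.54 and 1.67 points (SE 4.93), both away from control. The Hdac6 middle site had -6.69 and -10.6 points, and Srsf5, which was not called for knockdown, -0.84 and 3.61 points.

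The rescue effects of the isoforms were set against each other directly. The difference passed in limma at 0 of the 2031 sites (0.00345% of all events). An unadjusted p under 0.05 was found at 95 of the 2031 sites, against 1528 of all 28980 events. At Fbxo44, Sdhaf2, Cstf1 and Cnbp the E3-plus minus the E3-minus rescue effect was -14.7, -15.9, -8.46 and -5.8 points, with adjusted p from 0.933 to 0.967, so a difference between the isoforms is not shown at these sites. The largest values over all 2031 sites lay in Stmn1, which encodes the microtubule-destabilising stathmin, at -44.9 points (SE 15.3), and in the mitochondrial RNA-binding protein gene Fastkd3, at 44.6 points (SE 13.1). Stmn1 use was 63% and 32.7% in the E3-minus control libraries, 42.6% and 38.1% after knockdown and 57.4% and 60.9% after rescue, and 59% and 37.6%, 54% and 74.8% and 27.9% and 48.9% in the same order in the E3-plus line. Its control replicates alone span over 20 points in each line, and neither knockdown group stands clear of its controls. Zfp295, 2310061I04Rik and Xrn1, which encodes the 5'-to-3' exonuclease of the cytoplasm, had 32.1, 30.9 and 30.6 points, all 5 with a limma adjusted p between 0.928 and 0.956.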

How the data were processed

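The 12 libraries, 2 biological replicates in each of 6 groups, used 1000 ng of RNA and a stranded mRNA protocol changed to give inserts of 540 nt on average, per the labels. The deposited inclusion table gives a percent per event and library on mm9, per the submitters' processing notes, and how its reads were aligned and which number of reads a value needs are steps not given in the sources used here. A text code beside each percent was deposited by the authors and not used. The authors' deposited table of expression holds RPKM as one value per group, log2 fold changes, p-values and FDR, and Salmon 0.14.1 and edgeR are named in the submitters' processing notes. A deposited list of events with the authors' calls was used for description.

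From the percent values, limma 3.58.1 (R 4.3.3) was fitted with 6 group means and a trended, robust empirical Bayes variance to the 28980 events with values in all 12 libraries and a mean from 2 to 98, in 7018 genes. Calls need a Benjamini-Hochberg adjusted p under 0.05 and 15 points. All tests are two-sided, and SE is that of the fit. The fit was tested on simulated data. The percentages carry no read numbers, so no counting interval was computed. From the percentages alone, sites with few reads cannot be told from sites with many, and the text code was not examined for this. Tables were handled in Python 3.11.15, pandas 2.3.3 and matplotlib 3.10.9. Host genes were matched by symbol. Sequences come from GENCODE M21 transcripts, and no coordinate was converted between builds.

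Sites named are those called in any contrast, then those with the largest knockdown difference and no overlap of libraries up to 25 genes or sites, the 5 with the largest difference of rescue between lines, and up to 10 in genes of the recognition list. Some named items are not reported here. The sites and lists were chosen with earlier results of these data known. Alternatives were a 10-point limit, no filter on the mean, a logit scale bounded at 1 and 99, plain empirical Bayes, values in 10 of 12 libraries, the replicate number as a block, and leaving out each library.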

Additional observations from a re-analysis of the deposited data

How the results depend on the processing

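Of the 42 event results under 18 alternatives each, 69 of 756 values no longer passed, 21 newly passed and 0 reversed. The other 666 kept their direction and their side of the limit. Most of the 42 were not called in the main fit, and for these an uncalled value counts as kept. A call could be lost only at the 10 results over both lines and the 1 E3-minus and 2 E3-plus results that passed. All 69 lost values are theirs. Cnbp passed under all 18, and Fbxo44 under all but the fit without a filter on the mean. The 10 called sites for knockdown over both lines became 20 at 10 points, while calls over all 28980 events went from 430 to 716. With no filter on the mean, 1 of 9239 sites and 55 of 156274 events were called, and the cause was not tested. The logit scale gave 10 sites (409 events) and plain empirical Bayes 10 (387 events). With values in 10 of 12 libraries 13 of 2381 sites and 505 of 36137 events were called. In the E3-minus line the count of 1 became 0 with no filter and 0 on the logit scale. It became 3 with plain empirical Bayes and 0 with values in 10 of 12 libraries. Over all events the E3-minus count of 6 became 7, 7, 56 and 2 in that order. In the E3-plus line the count of 2 became 4 at 10 points and 0 with no filter. It became 0 on the logit scale and 6 with plain empirical Bayes. Over all events the E3-plus count of 98 became 118, 11, 66 and 138 in that order. Leaving out 1 library at a time gave 2 to 17 sites over both lines, 0 to 5 in the E3-minus line and 0 to 6 in the E3-plus line, and 0 for the rescue contrasts and the differences between the lines. The rescue contrasts and the differences between the lines stayed at 0 under the other alternatives too. Over all 28980 events, the knockdown counts over both lines and in each line also varied with the library left out.

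With the replicate block, 14 sites were called over both lines, 1 in the E3-minus and 4 in the E3-plus line. Over all 28980 events these counts were 524, 63 and 258. The sites in 8430427H17Rik, Bend4 and Ttc14 then passed over both lines (limma adjusted p = 0.0374, 0.0234 and 0.0250). The labels give only a number, with 2 pairs of same-numbered libraries per line in each contrast. Same-numbered libraries of different groups deviated together, with correlations from 0.0417 to 0.310 across events. Because nothing in the labels says what a number shares and each line has only 2 pairs, the main values have no block. Limits are the 2 libraries a group, the read depth per value, which was not examined, and sites of one event that share reads.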
